A study of Mus musculus with 72 samples.

Results

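The immunity-related GTPases (IRGs) and the giant GTPase Gvin1 were followed in mouse liver through 8 genes taken by name, Irgm1, Irgm2, Igtp, Iigp1, Tgtp1, Tgtp2, Ifi47 and Gvin1. All 8 had a line among the 50307 complete lines of the count table and all 8 were among the 14954 genes with enough counts to be tested, Gvin1 through one mouse strain alone. The libraries came from livers of male and female DBA/2J (DBA) and C57BL/6J (B6) mice, both inbred strains, fed a Western diet for 12 weeks with a low, a control or a high content of isoleucine and fasted for 16 h before sampling. The 72 libraries form 12 groups of 6, named below by strain and sex (B6F for B6 females, DBAM for DBA males) and by diet. The age field gives 18 weeks and the text on treatment has the diets start at 18 weeks, whereas the design text has them start at 6 weeks of age. Every group ate a Western diet, so no group shows these genes on another diet. The 7 hepatocyte markers measured summed to between 59762 and 139200 CPM in every library. Levels are given in CPM, counts normalised to library size after TMM scaling.

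IRGs are GTPases of the cell-autonomous defence that interferons switch on in mouse cells. Effector IRGs such as Iigp1 (Irga6), Tgtp1 and Tgtp2 (Irgb6) and Ifi47 (Irgd) load onto the vacuoles of intracellular parasites and bacteria, among them Toxoplasma gondii, and help to break them open, while the regulators Irgm1, Irgm2 and Igtp (Irgm3) sit on the cell's own membranes and keep the effectors inactive there. Gvin1 belongs to the giant interferon-inducible GTPases, whose role is less well known. Interferon gamma acts largely through promoter elements called GAS, and type I interferons act largely through ISRE elements, which factors of the IRF family bind.

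Of the members, 6 lie in clusters on chromosome 11 of the GRCm38 assembly, all annotated as protein coding. One cluster holds Irgm1 (chr11:48861968-48871683, minus strand), Tgtp1 (chr11:48985327-48994172, minus strand), Tgtp2 (chr11:49057194-49064206, minus strand) and Ifi47 (chr11:49076587-49096974, plus strand). The other holds Igtp (chr11:58199556-58207591) and Irgm2 (chr11:58199618-58222782), which overlap on the plus strand and share 162 exon bases. Iigp1 lies on chromosome 18 (chr18:60376027-60392634, plus strand) and Gvin1 on chromosome 7 (chr7:106156556-106215326, minus strand).

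Some members could not be counted apart with certainty. Of the 50-base words in the transcripts of Tgtp2, 85.8% also occur in Tgtp1, and 79.4% of those of Tgtp1 occur in Tgtp2. Of the words of Gvin1, 98.3% occur in its near-identical copy Gm4070. Igtp shares 11.8% of its words with Irgm2, whereas Irgm1 shares 0.31% with any other gene, Iigp1 1.69% and Ifi47 2.54%. The deposited counts are estimates, and Tgtp1, Tgtp2, Igtp and Irgm2 had values that were not whole in 94.4% to 98.6% of libraries, against 0% for Irgm1 and Iigp1. Values of the Tgtp pair, of Igtp with Irgm2 and of Gvin1 are therefore uncertain in how they split, and sums of each pair are given where they change a result.

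The promoters are shown because 4 of these genes share one arrangement of both interferon elements. RefSeq windows (GRCm38.p6) from 250 bases before to 50 after the start were matched for 6 of the 8 genes; the RefSeq starts of Irgm1, Irgm2 and Tgtp1 lie inside their longer GENCODE models. Each was searched on both strands for the GAS letters TTCNNNGAA, the ISRE letters GAAA followed after 2 bases of any kind by GAAA, and the kappaB letters GGGA, any base, TT, any base and CC. Capitals mark the GAS match and, after it, the ISRE match in 60 bases on the gene's own strand.
Irgm2, chr11:58214882-58214941, plus strand: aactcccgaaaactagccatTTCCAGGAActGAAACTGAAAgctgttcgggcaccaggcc
Igtp, chr11:58199491-58199550, plus strand: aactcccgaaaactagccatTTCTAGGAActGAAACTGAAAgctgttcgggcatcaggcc
Tgtp1, chr11:48992295-48992354, minus strand: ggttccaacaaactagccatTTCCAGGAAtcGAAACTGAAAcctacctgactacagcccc
Tgtp2, chr11:49064254-49064313, minus strand: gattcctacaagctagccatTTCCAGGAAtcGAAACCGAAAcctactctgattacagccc
In these 4 promoters the elements were 2 bases apart, and the GAS match began 75 bases before the start in Irgm2, 45 in Igtp, 88 in Tgtp1 and 81 in Tgtp2. Of 32851 promoter windows of the same length, 8.30% held the GAS letters, 3.44% the ISRE letters and 0.454% both. A GAS match followed after 2 bases by an ISRE match occurred in 5 windows (0.0152%), namely those of the 4 members and of Gm12185, a gene that overlaps Tgtp1. The GENCODE model of Gm12185 begins inside the Tgtp1 window on the same strand, so these matches may be the same bases. The search used the spacing of these 4 promoters, so their own matches were fixed beforehand and the share is no independent background. The windows of Irgm2 and Igtp, and those of Tgtp1 and Tgtp2, are also alike beyond the elements, so they are not separate cases. Irgm1 had no GAS match but overlapping ISRE matches, in capitals here, that began 30 and 24 bases before its start.
Irgm1, chr11:48871414-48871473, minus strand: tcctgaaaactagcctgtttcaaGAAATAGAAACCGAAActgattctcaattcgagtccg
The Ifi47 window held none of these letters, and no window of the 6 held the kappaB letters, which 1.20% of all windows did. These are matches of letters and not measured binding.

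Library totals ran from 12958975 to 51125371 counts, and their median was 24128733 counts. A few libraries stood apart in these genes. In DBAF high isoleucine library 2 all 7 members detected in DBA were the highest of the group, and Tgtp1 reached 356 CPM where the other 5 libraries lay between 11.3 and 25.5 CPM. B6F control libraries 2 and 6 were above their group mean for all 8 members, by a median of 0.68 and 1.13 on the log2 scale, and library 6 was the highest for all 8. B6M control library 2 and B6M high isoleucine library 3 were each the highest of their group for 7 of 8 members. Whether every library stands for its own mouse is not stated in the labels, so p-values speak to library-to-library spread, which may be technical in part.

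**Figure D1:**
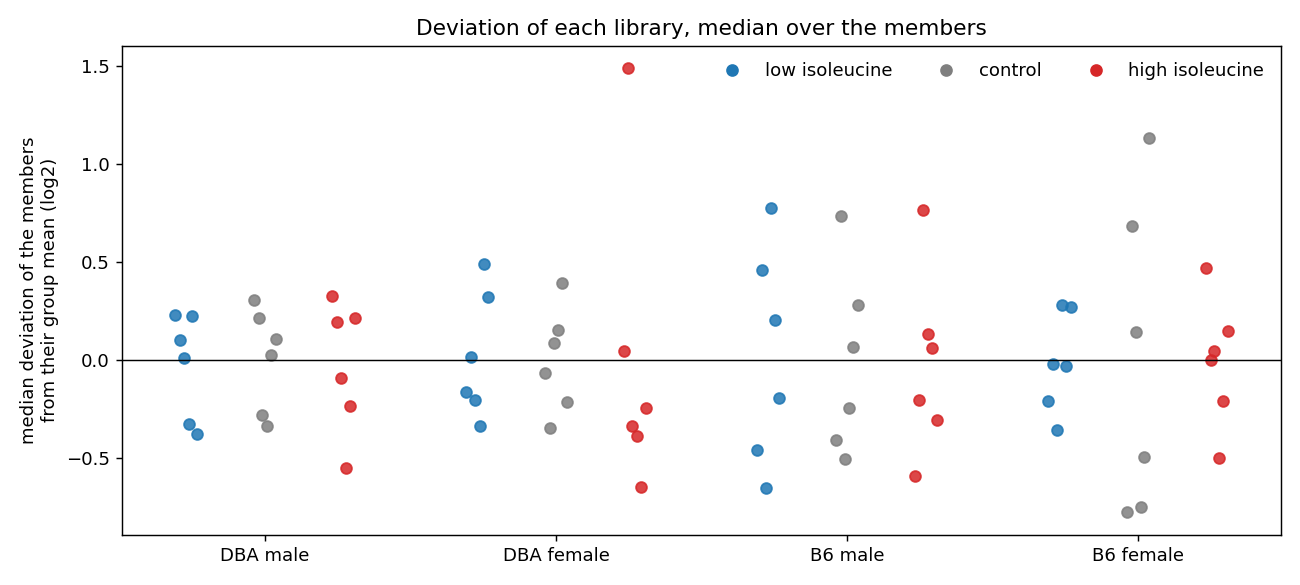
Each point is a library, placed at the median over the members of its deviation from its group mean (log2 CPM, y axis), by strain, sex and diet. DBA female high isoleucine library 2 is at 1.49 and B6 female control library 6 at 1.13, while every other library lies between -0.78 and 0.78.

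Per kilobase of exon, Iigp1 had the highest mean in the control groups of all 4 classes and Gvin1 the lowest. In DBAM control livers Iigp1 averaged 111 ± 14.5 CPM per kb, Igtp 66.0 ± 17.4, Irgm2 23.2 ± 3.59, Irgm1 15.7 ± 2.54, Ifi47 12.0 ± 2.57, Tgtp1 5.69 ± 1.34 and Tgtp2 2.19 ± 0.652 (SD, n = 6 each). Neighbours in this order overlapped for Iigp1 with Igtp, Irgm1 with Ifi47 and Ifi47 with Tgtp1, and the other neighbours did not overlap. In B6F control livers Iigp1 and Igtp had nearly the same mean (47.6 ± 13.4 and 47.4 ± 36.4 CPM per kb), Gvin1 averaged 1.47 ± 0.939, and every neighbour in the order overlapped (SD, n = 6 each).

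**Figure D2:**
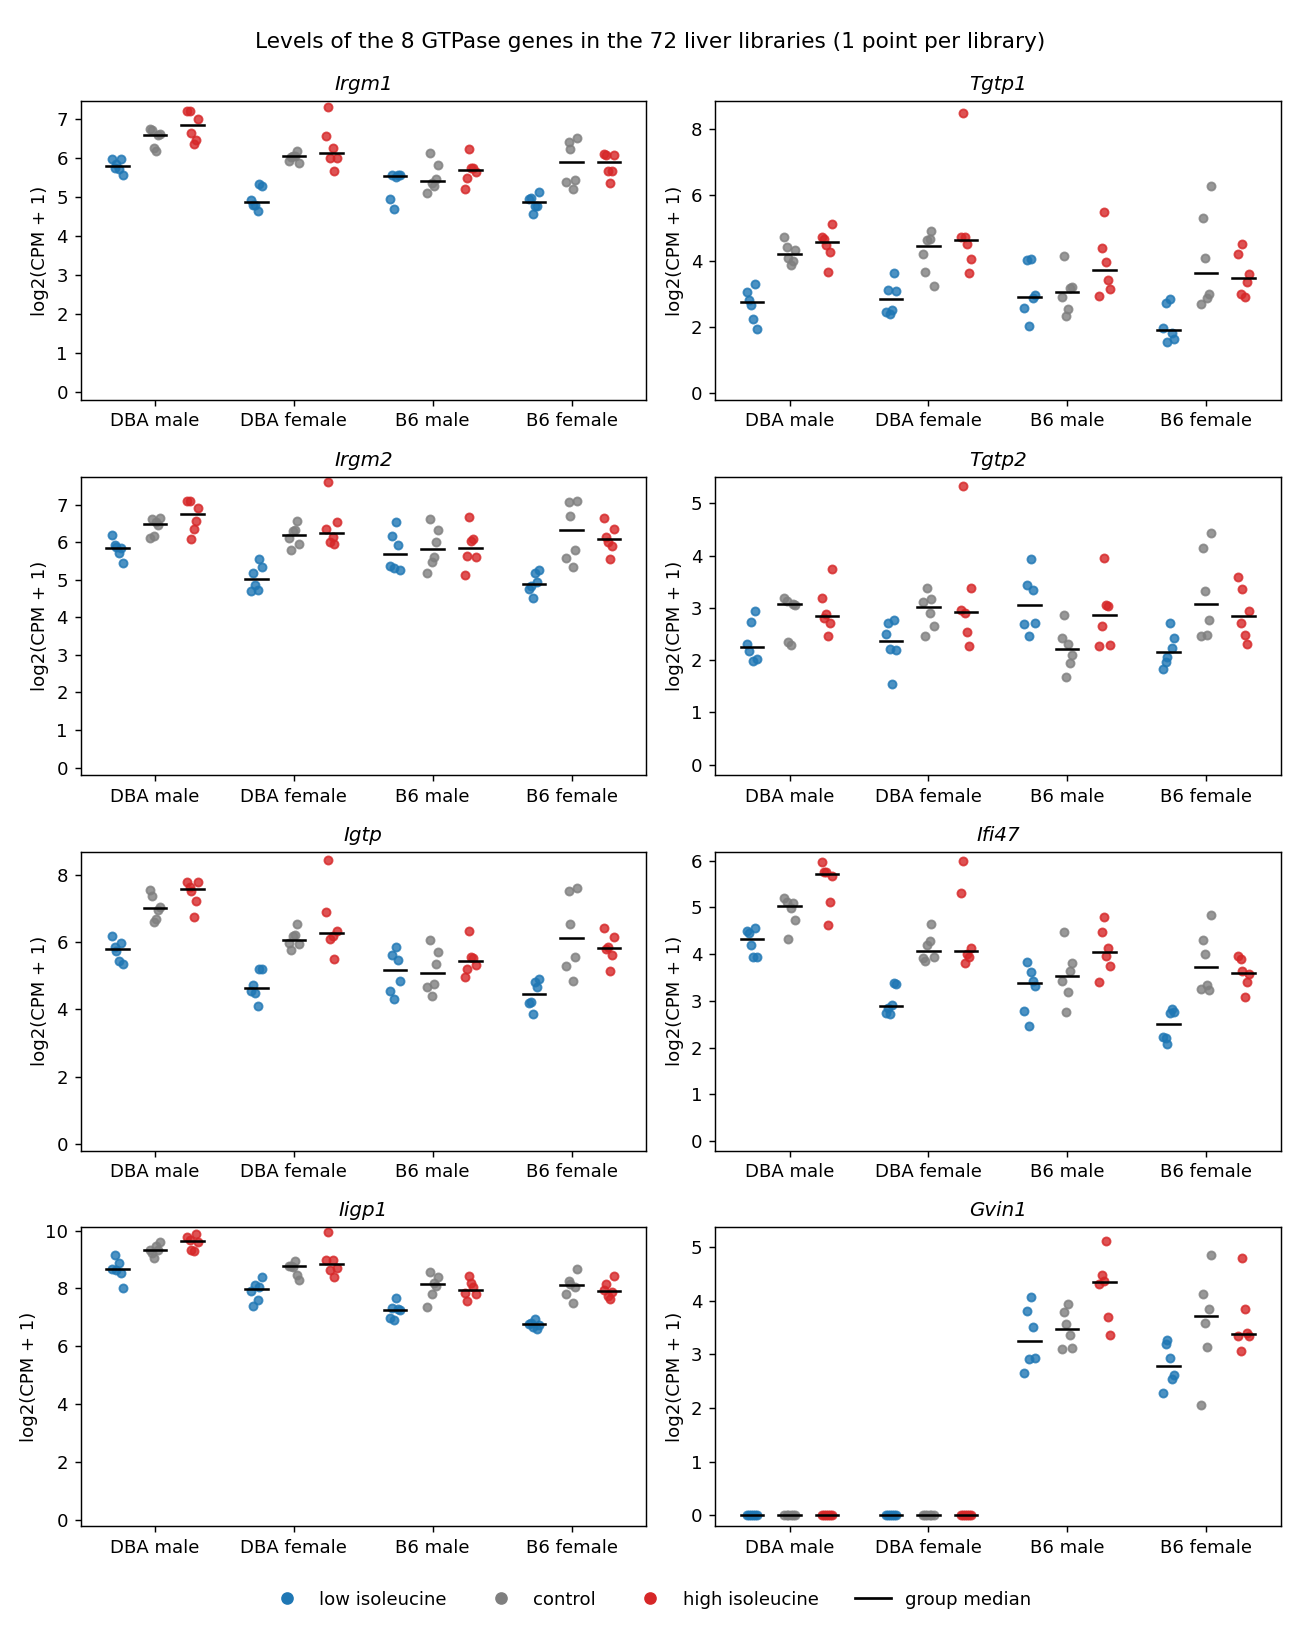
Points are log2(CPM + 1) of each gene in each library (y axis) for low isoleucine, control and high isoleucine livers of each strain and sex (x axis), and bars are group medians. Low isoleucine points of Irgm1, Irgm2, Igtp and Ifi47 lie below the control points in DBA females, and Gvin1 is at 0 in every DBA library.

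Low isoleucine was compared with control, the contrast that asks what restricting this amino acid does within a Western diet. Averaged over the 4 strain-sex classes, 6 of the 7 members that can be fitted in both strains fell, by 1.72-fold for Irgm1 to 2.78-fold for Tgtp1, while 20.0% of all genes tested fell. The regulators fell by 0.78 ± 0.10 (Irgm1), 0.84 ± 0.14 (Irgm2) and 1.23 ± 0.18 (Igtp) on the log2 scale (± SE), with adjusted p-values of 1.3e-08, 1.3e-06 and 2.6e-07 in edgeR's quasi-likelihood test over all genes. Among the effectors, Iigp1 fell by 0.91 ± 0.09 (adjusted p = 1.6e-11), Ifi47 by 0.98 ± 0.16 (adjusted p = 9.2e-07) and Tgtp1 by 1.47 ± 0.30 (adjusted p = 8.1e-05). Tgtp2, at a log2 fold change of -0.43 ± 0.20, did not pass (adjusted p = 0.084; 0.037 without DBAF high isoleucine library 2, which enters only the shared error). When the counts of Tgtp1 and Tgtp2 were summed the pair fell by 1.08 ± 0.26 (adjusted p = 0.00078). The median log2 fold change of the 7 members was -0.91, beside -0.0035 over all genes. In whole liver, fewer cells that hold these RNAs and less of them per cell cannot be told apart.

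By class, between 1 and 8 members fell. In B6F livers all 8 members fell, against 11.3% of all genes. Tgtp1 ranged from 1.90 to 6.20 CPM with a median of 2.72 in B6F low isoleucine livers, against 5.53 to 75.4 CPM with a median of 11.4 in B6F control livers. The groups overlapped only at their edge, and control libraries 2 and 6 held the top of the range (log2 fold change -2.83 ± 0.63, adjusted p = 0.00092). Igtp ranged from 13.5 to 29.0 CPM (median 20.8) in low isoleucine livers, against 27.6 to 193 CPM (median 68.2) in control livers. A single low isoleucine level passed the lowest control level, and Igtp fell by 2.17 ± 0.38 (adjusted p = 4.4e-05). Irgm1 ranged from 22.5 to 34.1 CPM (median 28.02) in low isoleucine livers, against 35.8 to 90.1 CPM (median 58.4) in control livers, with no overlap. Irgm1 fell by 1.12 ± 0.21 (adjusted p = 9.1e-05). Irgm2 ranged from 21.8 to 37.6 CPM (median 28.5) in low isoleucine livers, against 39.3 to 135 CPM (median 78.9) in control livers, and fell by 1.53 ± 0.28 (adjusted p = 6.1e-05). Ifi47 ranged from 3.20 to 6.10 CPM (median 4.67) in low isoleucine livers, against 8.42 to 27.8 CPM (median 12.2) in control livers, and fell by 1.65 ± 0.32 (adjusted p = 0.00019). Neither gene overlapped between the diets. Gvin1 ranged from 3.87 to 8.64 CPM (median 5.85) in low isoleucine livers, against 3.15 to 27.8 CPM (median 12.2) in control livers, where the lowest level of all was a control library. In 4 members, Irgm1, Irgm2, Iigp1 and Ifi47, every low isoleucine library lay below every control library, which held for 2.84% of all genes. Without control libraries 2 and 6 together, 5 members fell in B6F livers and Tgtp1 (-1.31, adjusted p = 0.18), Tgtp2 (-0.70, adjusted p = 0.31) and Gvin1 (-0.52, adjusted p = 0.44) did not pass. Gvin1 also lost its call, at -1.10 with an adjusted p of 0.037, without control library 2 alone (0.070) and without control library 6 alone (0.18). With the number in the library titles as a block, the adjusted p-values were 0.053 for Tgtp1, 0.064 for Tgtp2 and 0.061 for Gvin1.

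In DBAF livers 5 of 7 members fell, against 6.66% of all genes, namely Irgm1, Irgm2, Igtp, Iigp1 and Ifi47. Igtp ranged from 16.0 to 35.8 CPM (median 23.8) in DBAF low isoleucine livers, against 52.9 to 92.3 CPM (median 66.1) in DBAF control livers. The groups did not overlap, and Igtp fell by 1.39 ± 0.37 (adjusted p = 0.0089). Irgm1 ranged from 24.0 to 39.2 CPM (median 28.1) in low isoleucine livers, against 56.9 to 71.5 CPM (median 64.8) in control livers. It too showed no overlap and fell by 1.06 ± 0.21 (adjusted p = 0.00037). Ifi47 ranged from 5.63 to 9.37 CPM (median 6.39) with low isoleucine, against 13.4 to 24.1 CPM (median 15.8) on control, and fell by 1.24 ± 0.31 (adjusted p = 0.0056). Tgtp1 ranged from 4.29 to 11.4 CPM (median 6.14) with low isoleucine, against 8.40 to 28.8 CPM (median 20.6) on control. Its groups overlapped, and at -1.50 ± 0.60 it did not pass (adjusted p = 0.090), though it did when DBAF high isoleucine library 2 was left out of the shared fit (0.028). Irgm1, Irgm2, Igtp and Ifi47 were lower in every low isoleucine library than in any control library, as were 3.12% of all genes.

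In DBAM livers 4 of 7 members fell, against 10.2% of all genes, namely Irgm1, Igtp, Iigp1 and Tgtp1. Igtp ranged from 39.8 to 70.8 CPM (median 54.0) in DBAM low isoleucine livers, against 95.6 to 186 CPM (median 127) in DBAM control livers. The groups did not overlap, and Igtp fell by 1.31 ± 0.37 (adjusted p = 0.0080). Tgtp1 ranged from 2.81 to 8.83 CPM (median 5.70) in low isoleucine livers, against 13.7 to 25.2 CPM (median 17.5) in control livers. It fell by 1.67 ± 0.60 (adjusted p = 0.043) without overlap, and its adjusted p was 0.12 with the number in the library titles as a block and 0.077 for the sum with Tgtp2. Irgm1 was the third member without overlap, which held for 4.53% of all genes. Irgm2 ranged from 42.9 to 71.6 CPM (median 56.8) with low isoleucine, against 67.8 to 99.1 CPM (median 89.1) on control. Ifi47 ranged from 14.4 to 22.5 CPM (median 19.1) with low isoleucine, against 19.0 to 35.9 CPM (median 31.9) on control. Both overlapped at the edge of the groups, and neither Irgm2 (-0.60 ± 0.27, adjusted p = 0.12) nor Ifi47 (-0.68 ± 0.30, adjusted p = 0.11) passed. Igtp and Irgm2 summed fell by 0.99 ± 0.31 (adjusted p = 0.019).

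B6M livers stood at the other end. Iigp1 was the only member of 8 that fell, against 3.26% of all genes, and no member was free of overlap, against 1.36% of all genes. Tgtp2 ranged from 4.53 to 14.4 CPM (median 7.37) in B6M low isoleucine livers, against 2.21 to 6.27 CPM (median 3.62) in B6M control livers. Its level was thus on the higher side with low isoleucine, in part overlapping, at a log2 fold change of 1.07 ± 0.40 that did not pass (adjusted p = 0.11; 0.047 without DBAF high isoleucine library 2 in the shared fit). Igtp ranged from 18.9 to 56.8 CPM (median 35.2) in low isoleucine livers, against 20.1 to 64.9 CPM (median 32.7) in control livers, with groups that overlapped almost wholly. Ifi47 ranged from 4.48 to 13.4 CPM (median 9.43) in low isoleucine livers, against 5.80 to 21.1 CPM (median 10.6) in control livers. Gvin1 ranged from 5.32 to 15.8 CPM (median 8.51) in low isoleucine livers, against 7.60 to 14.4 CPM (median 10.04) in control livers. Both overlapped in most of their range, at log2 fold changes of -0.36 ± 0.31 and -0.13 ± 0.37 that did not pass.

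Iigp1 fell in each of the 4 classes. In DBAM livers it ranged from 257 to 566 CPM (median 404) with low isoleucine, against 530 to 778 CPM (median 639) on control. In DBAF livers it ranged from 169 to 333 CPM (median 250) with low isoleucine, against 313 to 495 CPM (median 433) on control. The low isoleucine groups of both classes reached just into the control range. In B6M livers it ranged from 120 to 201 CPM (median 154) with low isoleucine, against 161 to 382 CPM (median 281) on control. In B6F livers it ranged from 97.1 to 123 CPM (median 107) with low isoleucine, against 180 to 407 CPM (median 274) on control, without overlap. The log2 fold changes were -0.66 ± 0.19 (adjusted p = 0.0098) in DBAM, -0.74 ± 0.19 (0.0058) in DBAF, -0.87 ± 0.19 (0.0028) in B6M and -1.36 ± 0.19 (1.0e-06) in B6F livers. With counts summed over the libraries that share a title number, which leaves 3 sums per group, the adjusted p of Iigp1 was 0.064 in DBAM and 0.052 in DBAF livers, and that of Igtp was 0.051 in DBAF livers.

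**Figure D3:**
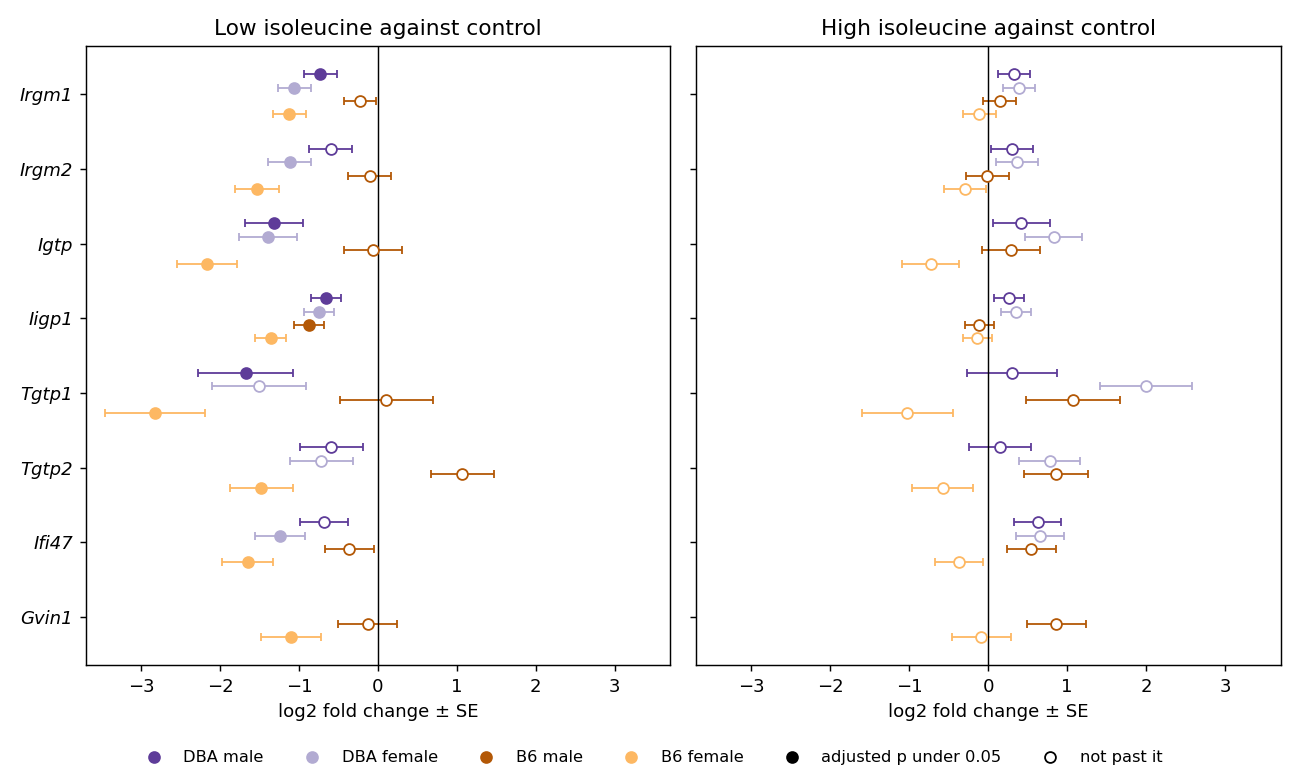
Points are log2 fold changes with their SE (x axis) of each member (rows) for low isoleucine against control on the left and high isoleucine against control on the right, coloured by class, and filled points have an adjusted p under 0.05. On the left Iigp1 is filled in 4 classes and B6 males lie near 0 for most other members, and on the right no point is filled.

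The difference of the low isoleucine effect between the sexes was tested as an interaction term. It is the signed log2 effect in males minus that in females. For these genes a positive difference means a smaller fall, or a rise, in males. Over both strains, males exceeded females in the log2 effect by 0.97 ± 0.27 for Irgm2 (adjusted p = 0.020) and by 1.33 ± 0.40 for Tgtp2 (adjusted p = 0.031), and 3.03% of all genes differed in this direction. Within B6 the male effect exceeded the female effect by 2.10 ± 0.52 for Igtp (adjusted p = 0.028) and by 2.54 ± 0.57 for Tgtp2 (adjusted p = 0.016), against 0.288% of all genes. Without B6F control libraries 2 and 6 together no member passed either test, with adjusted p-values of 0.080 for Irgm2 and 0.14 for Tgtp2 over both strains and of 0.34 for Igtp and 0.18 for Tgtp2 within B6. Within B6, Igtp also lost its call without library 2 alone (0.079) or library 6 alone (0.11), and Tgtp2 without library 6 alone (0.056), as it did over both strains (0.064). Without B6F control library 4, 5 members passed in each test, and without DBAF high isoleucine library 2, 5 passed over both strains and 4 within B6. With the numbers in the library titles as a block no member passed either test. Igtp and Irgm2 summed passed both tests, at 0.998 ± 0.31 over both strains (adjusted p = 0.038) and 1.74 ± 0.44 within B6 (0.035). Tgtp1 and Tgtp2 summed passed neither, with adjusted p-values of 0.10 over both strains and 0.053 within B6. Within DBA, edgeR called no member of 7, with 0 at an unadjusted p under 0.05 and 0 by DESeq2, while 2.76% of all genes differed between the sexes. Between the strains, edgeR called no member of 7 and DESeq2 called 0, with Iigp1 alone under an unadjusted p of 0.05, and 1.39% of all genes differed.

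High isoleucine was compared with the same control libraries. No member was called by edgeR or by DESeq2 in any class or in the mean. In the mean of the classes 0.0% of all genes were called, and 2 of 7 members, Tgtp1 and Ifi47, were under an unadjusted p of 0.05. In B6F livers 0.0% of all genes were called, and 1 of 8 members (Igtp) was under the unadjusted limit. In B6M livers 4.51% of all genes were called, and 2 of 8 members (Tgtp2 and Gvin1) were under the unadjusted limit. In DBAF livers 0.00669% of all genes were called, and 4 of 7 members (Igtp, Tgtp1, Tgtp2 and Ifi47) were under the unadjusted limit. In DBAM livers 0.0134% of all genes were called, and 1 of 7 members (Ifi47) was under it.

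For Tgtp1 and Igtp, levels with high isoleucine varied most in DBAF livers. Tgtp1 ranged from 11.3 to 356 CPM (median 23.5) in DBAF high isoleucine livers, against 8.40 to 28.8 CPM (median 20.6) in DBAF control livers. Igtp ranged from 43.6 to 347 CPM (median 75.6) in high isoleucine livers, against 52.9 to 92.3 CPM (median 66.1) in control livers. In both genes the groups overlapped, and library 2 held the top. The DBAF log2 fold change of Tgtp1 was 2.00 ± 0.58 with that library and 0.06 ± 0.47 without it, and that of Igtp 0.83 ± 0.36 with it and 0.15 ± 0.34 without it. In DBAM livers Igtp ranged from 106 to 221 CPM (median 190) with high isoleucine, against 95.6 to 186 CPM (median 127) on control. Ifi47 ranged from 23.7 to 61.5 CPM (median 51.5) with high isoleucine, against 19.0 to 35.9 CPM (median 31.9) on control. The DBAM medians of both genes were higher with high isoleucine while the groups overlapped.

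The size of the mean high isoleucine effect was bounded differently for each gene. For Iigp1 the log2 fold change was 0.09, with an interval of 2 SE from -0.10 to 0.28. For Irgm1 it was 0.19 (interval -0.02 to 0.39), for Ifi47 0.36 (0.06 to 0.67) and for Tgtp1 0.59 (0.01 to 1.16). Without DBAF high isoleucine library 2 the value was 0.02 for Iigp1, 0.12 for Irgm1, 0.25 for Ifi47 and 0.10 for Tgtp1. The high isoleucine effect differed between strains for no member of 7 in edgeR and 0 in DESeq2, with Igtp and Iigp1 under an unadjusted p of 0.05 and 0.461% of all genes called. It differed between sexes for no member in edgeR and 0 in DESeq2, with 0 under an unadjusted p of 0.05 and 0.0% of all genes called.

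Between the ends of the isoleucine range, all 7 members that can be fitted in both strains were higher with high than with low isoleucine, against 22.9% of all genes. The log2 differences were 2.06 ± 0.30 for Tgtp1 (adjusted p = 1.3e-07), 1.43 ± 0.19 for Igtp (4.9e-09), 1.35 ± 0.16 for Ifi47 (2.4e-10), 0.998 ± 0.10 for Iigp1 (3.0e-13), 0.97 ± 0.10 for Irgm1 (1.7e-11), 0.93 ± 0.14 for Irgm2 (9.0e-08) and 0.73 ± 0.20 for Tgtp2 (0.0021). This comparison uses the same libraries as those against control, among them DBAF high isoleucine library 2, which weighs most on Tgtp1. Without that library the mean high isoleucine effect of Tgtp1 against control was 0.10, so the size given for Tgtp1 here rests in part on it. The sum of all 8 genes had a median of 1330 CPM in DBAM high isoleucine livers, against 612 CPM in DBAM low isoleucine livers. The medians were 723 CPM with high and 348 CPM with low isoleucine in DBAF livers, 433 CPM with high and 315 CPM with low isoleucine in B6M livers, and 479 CPM with high and 201 CPM with low isoleucine in B6F livers. The mean of Tgtp2 in B6M livers was on the other side, at 7.02 CPM with high and 8.15 CPM with low isoleucine. In the same comparison over the classes, 11 of 11 Kupffer cell and 7 of 10 infiltrating macrophage markers were higher with high isoleucine, and 5 of 8 sinusoidal endothelial and 6 of 7 hepatocyte markers were lower. Their part in the members' difference was not tested.

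DBA and B6 livers were compared within each diet. Gvin1 had 0 counts in DBA and passed the count filter through B6 alone, so no call between the strains is read for it. Its levels are set out below with those of its copy Gm4070. On the control diet 4 members were higher in DBA, against 22.9% of all genes. Iigp1 was higher by 0.90 ± 0.13 (adjusted p = 6.6e-08), Ifi47 by 0.78 ± 0.22 (0.0021), Irgm1 by 0.52 ± 0.15 (0.0026) and Igtp by 0.67 ± 0.26 (0.029). Igtp lost its call without B6F control library 4 (adjusted p = 0.059) and when summed with Irgm2 (0.14). Over all diets Iigp1 ranged from 169 to 984 CPM (median 453) in the 36 DBA libraries, against 97.1 to 407 CPM (median 221) in the 36 B6 libraries, so that the strains overlapped across diets. On the low isoleucine diet Iigp1 (1.31 ± 0.14, adjusted p = 6.8e-13) and Ifi47 (0.83 ± 0.22, adjusted p = 0.0017) were higher in DBA, against 22.8% of all genes, and Gvin1 was lower, against 21.7%. On the high isoleucine diet 6 members were higher in DBA, against 25.9% of all genes, led by Tgtp1 (1.52 ± 0.41, adjusted p = 0.0016) and Igtp (1.51 ± 0.26, adjusted p = 1.9e-06). Without DBAF high isoleucine library 2, the Tgtp1 difference was 0.55 with an adjusted p of 0.16, the Igtp difference was 1.18, and the other 4 calls of higher levels held. Tgtp1 and Tgtp2 summed were higher in DBA on this diet by 1.25 ± 0.37 (adjusted p = 0.0035), with that library included.

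Gvin1 had 0 counts in all 36 DBA libraries, which together hold 876095211 counts. A floor of 3 counts per library corresponds to at most 0.185 CPM in a DBA library. In the B6 libraries Gvin1 lay between 3.15 and 33.6 CPM, above that floor in every library. Set at the floor, DBA levels were at least 56.5-fold lower than the B6M control mean of 10.5 CPM and at least 71.7-fold lower than the B6F control mean of 13.3 CPM. The copy Gm4070 went the other way, with 4.71 to 56.6 CPM (median 11.3) in DBA libraries, against 0 to 15.8 CPM (median 5.32) in B6 libraries, and was higher in DBA on the control diet by 1.16 ± 0.30 (adjusted p = 0.0012). When the counts of both copies were summed, the strain difference on the control diet was -0.33 ± 0.24 (interval of 2 SE from -0.80 to 0.14, adjusted p = 0.26). The summed difference was -0.51 ± 0.24 (adjusted p = 0.081) on the low isoleucine diet and -0.10 ± 0.23 (adjusted p = 0.75) on the high isoleucine diet. In DBA the counts of the pair thus stood under Gm4070 alone, and in B6 under both names. The sum of both copies fell with low isoleucine in the mean of the classes, by 0.79 ± 0.17 (adjusted p = 0.00016), and was higher with high than with low isoleucine by 1.20 ± 0.17. Within classes the sum fell in B6F livers by 1.20 ± 0.34 (adjusted p = 0.0080) and in DBAM livers by 1.03 ± 0.34 (adjusted p = 0.025).

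**Figure D4:**
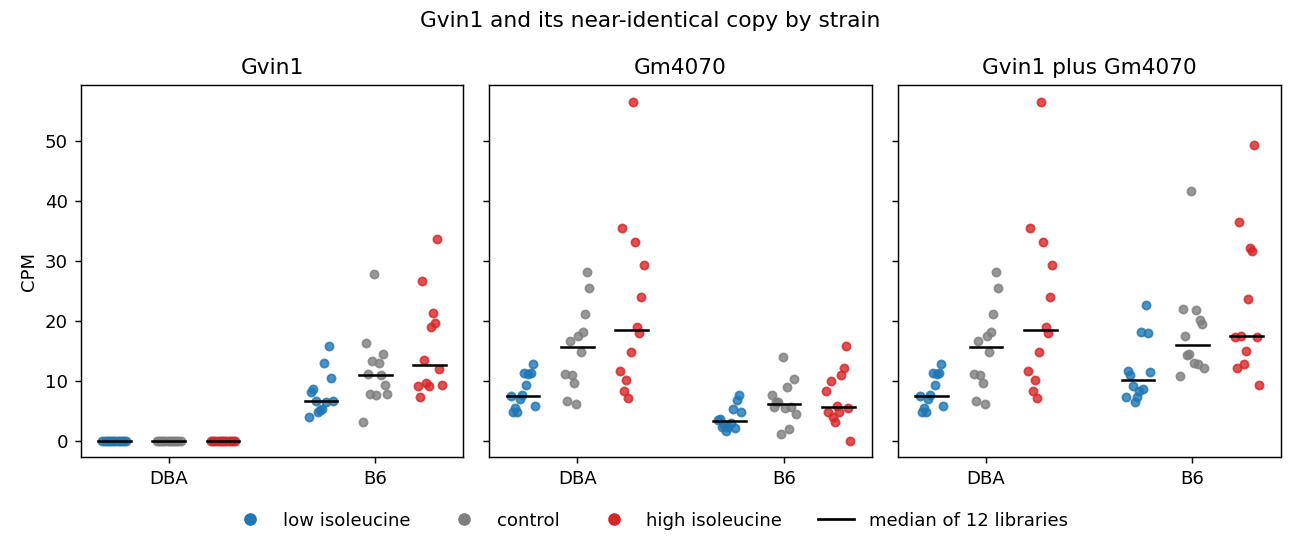
Points are CPM (y axis) of Gvin1, of its near-identical copy Gm4070 and of their sum in each library of DBA and B6 mice (x axis), coloured by diet, and bars are medians of 12 libraries. Gvin1 is at 0 in DBA, Gm4070 is higher in DBA than in B6, and the sums of the strains overlap widely.

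Males and females on the control diet differed in Tgtp2, which was lower in males by a log2 fold change of -0.75 ± 0.28 (adjusted p = 0.041), against 12.9% of all genes that were lower in males. Tgtp2 ranged from 3.88 to 8.08 CPM in DBAM and from 2.21 to 6.27 CPM in B6M control livers, against 4.53 to 9.41 CPM in DBAF and 4.51 to 20.6 CPM in B6F control livers. The sexes overlapped in both strains. The call was lost without B6F control library 2 (adjusted p = 0.088), without library 6 (0.13), without both (0.39), with the title number as a block (0.20) and for Tgtp1 and Tgtp2 summed (-0.81 ± 0.37, adjusted p = 0.095). Markers of other cells were also lower in males, with 11 of 11 Kupffer cell, 11 of 13 T and NK cell, 4 of 5 B cell, 6 of 8 sinusoidal endothelial and 2 of 10 infiltrating macrophage markers, and 1 T and NK cell marker was higher. Their part in the Tgtp2 difference was not tested. Tgtp1, at -0.84 ± 0.41, did not pass (adjusted p = 0.13; 0.048 without DBAF high isoleucine library 2). Iigp1, at 0.33 ± 0.13, did not pass (adjusted p = 0.058), but was higher in males without B6F control library 6 (0.021) or DBAF high isoleucine library 2 (0.033).

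Genes listed under interferon gamma signalling were read from the same fits. Ifng, which encodes interferon gamma itself, was too low to be tested. Irf1, an interferon-induced transcription factor, fell with low isoleucine by 0.60 ± 0.09 (adjusted p = 2.5e-07) in the mean of the classes, and Ciita, the activator of MHC class II genes, by 0.57 ± 0.17 (0.0066). Of the receptor chains, Ifngr2 fell by 0.39 ± 0.07 (adjusted p = 2.7e-05), whereas Ifngr1, at -0.03 ± 0.06, did not pass (0.76). In all, 5 of 12 interferon gamma signalling genes fell and 0 rose, with a median of -0.13.

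Other interferon-induced families also fell. Of the 11 guanylate-binding protein genes, GTPases that act on the same vacuoles, 9 fell in the mean of the classes, led by Gbp10 (-2.61 ± 0.28, adjusted p = 3.2e-11), Gbp11 (-1.56 ± 0.18) and Gbp3 (-1.37 ± 0.16). All 16 type I interferon response genes fell, with a median of -0.97, among them Ifit1 (-1.76 ± 0.14, adjusted p = 4.8e-15), which binds viral RNA. Of 8 type I interferon signalling genes 4 fell, including Irf7 (-1.10 ± 0.13) and Usp18 (-0.91 ± 0.10), a brake on the receptor. Of 12 other IRG and giant GTPase genes 6 fell and 1 rose. Gm12250, annotated as a processed pseudogene here and known as Irgb10, fell by 1.43 ± 0.23 (adjusted p = 1.6e-06). Of 11 genes of the LC3 conjugation system, which guides IRGs to vacuoles in mouse cells, 4 fell, led by Atg7 (-0.34 ± 0.05), and 2 rose, Atg16l1 (0.25 ± 0.04) and Map1lc3b (0.18 ± 0.04). The median of the 11 was -0.095, and 20.0% of all genes tested fell in this comparison. No response particular to this system is read from these counts.

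By class, the counts were lowest in B6M livers. There 1 of 8 members, 1 of 11 guanylate-binding protein genes and 2 of 16 type I interferon response genes fell with low isoleucine. The share of all genes that fell was lowest there too, at 3.26%. In DBAM livers the counts were 4 of 7 members, 5 of 11 and 16 of 16, against 10.2% of all genes. In DBAF livers they were 5 of 7, 5 of 11 and 16 of 16, against 6.66%. In B6F livers they were 8 of 8, 10 of 11 and 16 of 16, against 11.3%. On the control diet all 16 type I interferon response genes were higher in DBA than in B6, as were 6 of 11 guanylate-binding protein genes, with 1 lower. Of all genes, 22.9% were higher and 22.5% lower in DBA. Differences between these counts were not tested.

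Markers of immune cells are given beside these counts, since immune cells also express IRGs. In the mean of the classes 9 of 11 Kupffer cell and 7 of 10 infiltrating macrophage markers fell with low isoleucine, against 20.0% of all genes. In that mean 5 of 8 sinusoidal endothelial and 3 of 7 hepatocyte markers rose. In B6F livers 6 of 11 Kupffer cell markers and 8 of 10 infiltrating macrophage markers fell with low isoleucine, against 11.3% of all genes. At an unadjusted p under 0.05 in edgeR's test the counts were 9 and 9. The Kupffer sum ranged from 299 to 460 CPM (median 374) in B6F low isoleucine livers, against 375 to 1036 CPM (median 516) in B6F control livers. The infiltrating macrophage sum ranged from 34.1 to 75.1 CPM (median 49.1) with low isoleucine, against 56.6 to 144 CPM (median 75.7) on control. In B6M livers, where Iigp1 alone of the members fell, 4 of 11 Kupffer markers and 1 of 10 infiltrating macrophage markers fell, against 3.26% of all genes. At an unadjusted p under 0.05 the B6M counts were 10 of 11 and 5 of 10. The Kupffer sum there ranged from 106 to 252 CPM (median 177) with low isoleucine, against 249 to 455 CPM (median 314) on control. In DBAM livers, where 4 members fell, edgeR called 0 of 11 Kupffer and 0 of 10 infiltrating macrophage markers, with 0 of each at an unadjusted p under 0.05, and the Kupffer sum had a median of 238 CPM with low isoleucine and 232 CPM on control. In DBAF livers, where 5 members fell, both counts were again 0, with 0 at an unadjusted p under 0.05, and the medians of the Kupffer sum were 258 CPM with low isoleucine and 310 CPM on control.

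T and NK cell markers were low throughout, while the 5 B cell markers summed to between 3.71 and 79.7 CPM in any library. The 15 T and NK cell markers summed to between 2.39 and 21.2 CPM in any library, and Cd8b1 was at 0 in 25 of the 72 libraries, Klrb1c in 16 and Gzmb in 10. With low isoleucine 2 of 13 tested T and NK cell markers fell in B6F livers (11.3% of all genes) and 1 in B6M (3.26%). In DBAF livers 2 fell (6.66%) and in DBAM livers 1 (10.2%). Of the 5 B cell markers 1 fell in the mean of the classes, and edgeR called 0 in each class. At an unadjusted p under 0.05 there were 4 in B6M, 1 in DBAM, 0 in B6F and 0 in DBAF livers. The B cell sum in B6M livers had a median of 5.84 CPM with low isoleucine and 13.1 CPM on control. On the control diet, where 4 members were higher in DBA, 9 of 11 Kupffer and 8 of 10 infiltrating macrophage markers were lower in DBA. So were 7 of 13 T and NK cell markers, with 1 higher, and 3 of 5 B cell markers, against 22.5% of all genes. Of 7 hepatocyte markers, 3 were higher with low isoleucine in B6F livers, and in DBAM livers Ttr alone passed the test and was lower. In edgeR's test 0 passed in B6M livers, with 1 at an unadjusted p under 0.05, and 0 in DBAF livers, with 3. The part of cell composition in the members' levels was not tested.

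**Figure D5:**
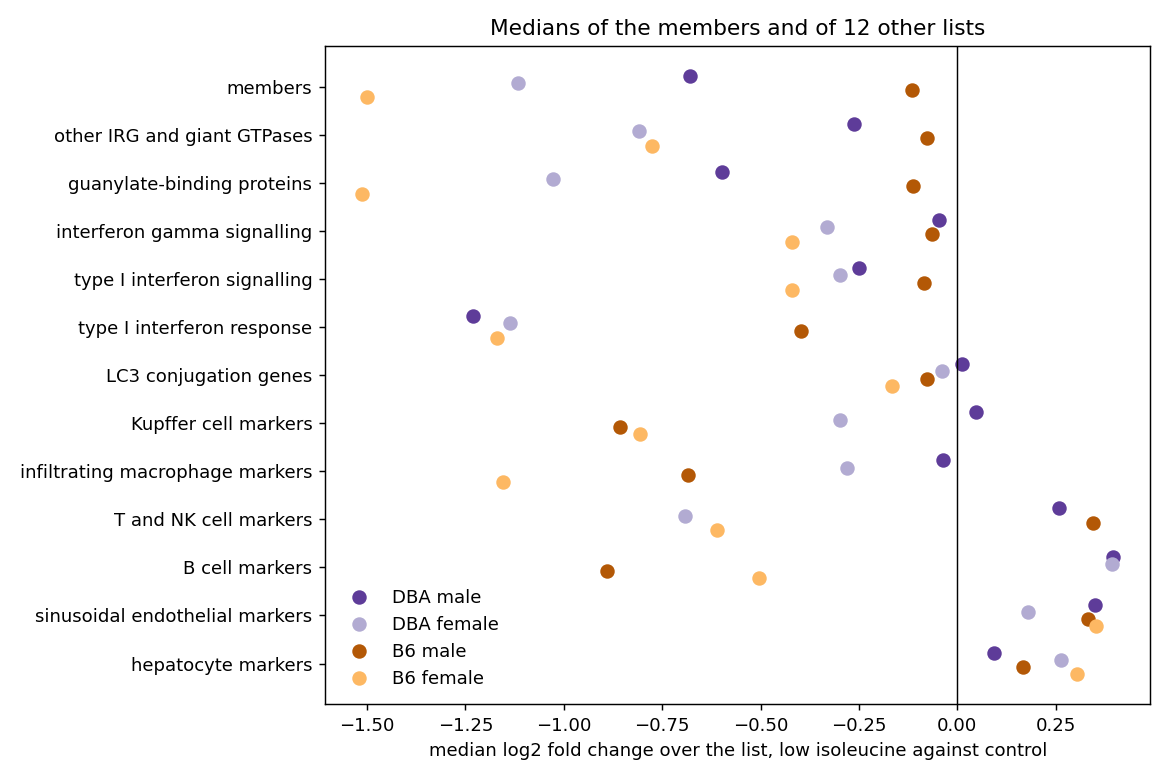
Points are the median log2 fold change (x axis) of the members and of 12 other gene lists (rows) for low isoleucine against control, coloured by class. The medians of the members run from -1.50 in B6 females to -0.12 in B6 males, those of the guanylate-binding proteins from -1.51 to -0.11 in the same classes, and that of the type I interferon response genes is -0.40 in B6 males and between -1.23 and -1.14 in the other classes.

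Genes most like each member were sought among the 3 with the highest Pearson r of log2(CPM + 0.5) over the 72 libraries after removal of strain-sex class means, so that the values share libraries, depth and diet. For Irgm1 they included Gbp6 (r = 0.95) and Gbp10 (0.92), and for Igtp Gbp6 (0.95) and BC023105 (0.93). Irgm2 was most like Gbp6 (0.91), Ifi47 most like Gbp6 (0.90) and Tgtp1 most like BC023105 (0.95). Iigp1 was most like Zbp1 (0.91), Zc3hav1 (0.91) and Rtp4 (0.90), of which Zbp1 senses nucleic acids and Zc3hav1 is an antiviral zinc finger protein. Zbp1 was also among the 3 genes most like Ifi47 (0.89). Among the members Igtp and Irgm1 were most alike (0.96), Iigp1 and Tgtp2 much less so (0.55). Gvin1, over the 36 B6 libraries, was most like Evi2b (0.74) and H2-Ab1 (0.74), an MHC class II gene.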

How the data were processed

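Liver RNA was sequenced in 72 libraries. Per the labels' protocols, the authors' reads were aligned to GRCm38.p5, and genes with Ensembl identifiers were given expected counts. Which aligner and counter did so is not given in the sources used here. The labels name both a polyA-enriched stranded preparation and a stranded total RNA guide. R 3.4.3 is listed in the submitters' processing notes, as are edgeR and limma. The deposited expected counts are estimates, since 9.56% of nonzero entries are not whole numbers. Tables of the authors' own comparisons were not used, because their group codes are not explained. Of 50308 genes listed, 50307 have complete lines; all matched GENCODE M21 of GRCm38, and 0 columns were left unmatched. Groups came from the strain, sex and diet fields; the strain field writes C56BL/6J where the design text has C57BL/6J.

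Expected counts were rounded, low genes removed with filterByExpr, sizes scaled by TMM (factors 0.84 to 1.14), and 14954 genes tested with edgeR 4.0.16 (R 4.3.3) by the quasi-likelihood test with robust dispersions; the 72 libraries shared a model with 1 mean for each of 12 groups (common biological coefficient of variation 0.21). The Benjamini-Hochberg adjustment ran over all tested genes, with a threshold of 0.05; SEs are derived from the F statistic. With no counts of Gvin1 in DBA, effects averaged over strains were not computed for it. Tested on simulated B6F low isoleucine and control counts of 14644 genes, the fit called 50% of 50 genes changed 1.5-fold and 86% of 50 changed 2-fold. It called 100% of 50 changed 3-fold. These counts were drawn around 1 mean per gene with the trended dispersion, without outlying libraries or shared title numbers. The rates therefore do not carry over to members whose levels spread more widely. Titles carry 3 numbers per group with 2 libraries each, lettered N and R. Within a strain and sex each number occurs in a single diet, so the numbers are nested in diet. What a number or letter marks is not stated. If diets were assigned by number, a group would hold 3 units. The correlation of libraries sharing a number was 0.24 (limma 3.58.1). DESeq2 1.42.0, other scalings and left-out libraries were alternatives. The members, the lists and the tests were chosen with earlier results of these data known. Named are all members, up to 4 genes of each other list with the lowest adjusted p, and Irf1, Ifng, Ifngr1, Ifngr2 and Gm12250, with 1 further gene not reported here; Gm4070 was added for its sequence, and Gm12185 for its promoter. The levels hold counting error and the spread between libraries. Positions and exon lengths came from GENCODE M21; 50-base words were compared over its transcripts.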

Additional observations from a re-analysis of the deposited data

Results flagged for a closer look

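A library far from the others of its group was found in 10 of the 90 gene-by-group sets of 6 values tested. The sets share libraries and hold untransformed CPM, so this count cannot be set against a chance rate. DBAF high isoleucine library 2 accounts for 5 of them, with 192 CPM of Irgm2, 347 CPM of Igtp, 984 CPM of Iigp1, 356 CPM of Tgtp1 and 39.1 CPM of Tgtp2. B6M high isoleucine library 3 accounts for another 3, with 79.9 CPM of Igtp, 43.3 CPM of Tgtp1 and 14.6 CPM of Tgtp2. The others are B6M control library 2 with 16.7 CPM of Tgtp1 and B6F high isoleucine library 3 with 26.7 CPM of Gvin1.

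The low isoleucine effect differed between the sexes by a test of the difference itself in 4 cases. The signed log2 effect was higher in males, which here means a smaller fall or a rise. The difference over both strains was 0.97 for Irgm2 and 1.33 for Tgtp2, and within B6 2.10 for Igtp and 2.54 for Tgtp2. Each of these calls was lost without B6F control libraries 2 and 6.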

How the results depend on the processing

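Tgtp1 and Tgtp2 had the widest errors in the low isoleucine effects. The falls of 6 members in the mean of the classes held under every alternative run for those genes, with Tgtp2 added without DBAF high isoleucine library 2, as did the rise of 7 members from low to high isoleucine, and no alternative called a member for high isoleucine against control. RLE size factors changed no call. Over the members' single results, 523 values of called effects were recomputed, of which 473 stayed called in the same direction, 50 fell short and 0 turned; of results not called, 31 became called and 5 changed sign.

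Low isoleucine in B6F changed 5 members in limma-voom with the title number as a replicate block and 5 when B6F control libraries 2 and 6 were both left out, against 8. In B6M the count was 1 to 2 over the left-out libraries, in DBAF 3 and in DBAM 2 with counts summed per title number, against 5 and 4. For males against females the count was 0 without a filter on low counts, 0 with summed counts, 0 with the replicate block and 0 to 3 over left-out libraries. The sex difference of the low isoleucine effect gave 1 without a filter, 0 with summed counts, 0 with the block, 5 in DESeq2, 1 to 5 over left-out libraries and 0 without B6F control libraries 2 and 6; within B6 these counts were 1, 0, 0, 4, 0 to 5 and 0. The block changed no other count by over 1.5 times. Signs that turned, all of effects not called, were those of Tgtp1 between strains on low isoleucine (-0.078 for Tgtp1 and Tgtp2 summed), Tgtp2 between strains on high isoleucine (-0.057 without DBAF high isoleucine library 2, and up to 0.40 over left-out libraries) and, between the sexes, Irgm1 (-0.0025 without B6F control library 4, and up to 0.13), Irgm2 (0.12) and Igtp (0.27), both without B6F control libraries 2 and 6. The causes were not tested. The left-out libraries and the sums of Igtp with Irgm2 and of Gvin1 with Gm4070 were chosen after seeing the data, except B6F control library 4, and other fits were planned.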
